A study of Mus musculus with 2 samples.

Results

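The genes described here are those of major histocompatibility complex (MHC) class II presentation, followed across the cell classes of the mouse aortic lining. They are 7 of the 27998 gene names in both count tables: the invariant chain Cd74, the classical chains H2-Aa, H2-Ab1 and H2-Eb1, the editors H2-DMa and H2-DMb1, and the transactivator Ciita. They were listed by name after their higher level in old endothelium was known: they were chosen by the old over young ratios in endothelial cells, which are therefore a description and carry no support of their own. Cells came from the aortic intima of 1 C57BL6/J mouse of 8 weeks and 1 of 18 months, loosened with trypsin and collected with a scalpel. No treatment or transgene is given for either animal. RNA was counted by a droplet method that reads the 3′ end of each transcript and counts unique molecular identifiers (UMIs). Each age is 1 library from 1 animal, so no difference between ages has a replicate check, and no test was made. All 95% intervals cover counting error only.

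MHC class II molecules are pairs of an alpha and a beta chain that display peptides from endocytosed proteins to CD4 T cells. The invariant chain guides the pair to endosomes and blocks its groove until proteases remove it, after which the DM heterodimer helps exchange the remaining fragment for other peptides. Macrophages, dendritic cells and B cells make class II constantly, whereas endothelial cells can be induced to make it by interferon gamma, which acts through the transcriptional coactivator encoded by Ciita.

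Ciita protein binds no DNA by itself and is recruited by factors seated on short elements upstream of class II genes, known as the X and Y boxes. Of the 7 genes, 4 were read by name in the RefSeq promoter table (GRCm38.p6, 250 bases before to 50 after each start). No promoter of Cd74, H2-Ab1 or Ciita was among those read by name, so nothing is said of theirs. The upstream regions of H2-Aa, H2-Eb1 and H2-DMb1 are shown because all 3 hold, read along the gene, the letters CTNGNAAC (N is any base) followed by TGATTGG. Capitals mark these letters, which were set after the promoters were read, both strands were searched, and TGATTGG contains the reverse CCAAT letters ATTGG.
H2-Aa: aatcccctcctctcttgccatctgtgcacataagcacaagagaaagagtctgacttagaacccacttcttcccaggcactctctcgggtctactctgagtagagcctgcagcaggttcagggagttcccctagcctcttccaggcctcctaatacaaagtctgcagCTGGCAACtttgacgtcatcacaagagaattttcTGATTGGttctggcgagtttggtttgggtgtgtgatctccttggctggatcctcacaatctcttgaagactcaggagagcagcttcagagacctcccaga
H2-Eb1: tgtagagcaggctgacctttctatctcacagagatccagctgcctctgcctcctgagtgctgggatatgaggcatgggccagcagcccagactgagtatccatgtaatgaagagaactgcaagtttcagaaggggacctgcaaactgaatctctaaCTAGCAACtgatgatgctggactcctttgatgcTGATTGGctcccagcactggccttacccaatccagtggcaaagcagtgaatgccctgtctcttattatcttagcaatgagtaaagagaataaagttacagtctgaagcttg
H2-DMb1: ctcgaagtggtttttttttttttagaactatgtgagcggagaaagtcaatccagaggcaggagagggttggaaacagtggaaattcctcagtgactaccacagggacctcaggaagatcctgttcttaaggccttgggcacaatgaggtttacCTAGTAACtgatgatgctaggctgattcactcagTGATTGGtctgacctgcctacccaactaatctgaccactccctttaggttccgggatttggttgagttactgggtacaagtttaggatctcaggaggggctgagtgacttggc
The H2-Aa region is chr17:34287774-34288073 of a gene on the minus strand, printed 5′ to 3′ along the gene. H2-Eb1 (chr17:34305617-34305916) and H2-DMb1 (chr17:34152941-34153240) lie on the plus strand. Between both sets of letters were 26 bases in H2-Aa, 25 in H2-Eb1 and 26 in H2-DMb1. The first set began 84, 94 and 97 bases before the annotated start, in the same order. In all 32851 promoters of this length, CTNGNAAC was found in 13.2%, TGATTGG in 7.82% and ATTGG in 37.4%. Both in this order, with 10 to 40 bases between, were found in 28 (0.0852%), among them those of these 3 genes and of H2-Ob, a brake on DM. Neither of the 2 H2-DMa entries held the pair. None of the 28 was named Cd74, H2-Ab1 or Ciita, which does not tell whether their promoters were among those searched.

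In the gene annotation (GENCODE vM21 on GRCm38), 5 of the 7 genes lie on chromosome 17: H2-DMa at 34119541 to 34139101, H2-DMb1 at 34153072 to 34160230, H2-Ab1 at 34257689 to 34269419, H2-Aa at 34282744 to 34287823 and H2-Eb1 at 34305867 to 34316674. H2-Aa is on the minus strand and the other four on the plus strand. Ciita lies on chromosome 16 (10480059 to 10528418, plus strand), and Cd74 on chromosome 18. Tags come from the 3′ end of transcripts, and 27.4% of the 50-base words in the last 500 bases of H2-DMb1 transcripts are shared with other genes, most of them with H2-DMb2. H2-DMb1 counts are therefore uncertain to that extent. The other 6 members shared no such word.

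The young library held 1366 barcodes with 12576023 UMIs and the old library 3408 with 19171045. Both libraries shared 11 barcodes. Clusters made without the class II genes were named from markers. They gave 1097 young and 2436 old endothelial-like (EC-like) cells, 240 and 577 fibroblast-like, 13 and 153 macrophage-like, and 7 and 82 T or NK-like cells. The old library also held 31 B-like, 39 erythroid-like and 12 smooth muscle-like cells. All 10 endothelial markers were seen in the EC-like cells of both libraries. Endothelial clusters split by library: clusters 0 and 1 held most young EC-like cells, and clusters 3, 4 and 5 most old ones. Median depth was 7373 UMIs in young EC-like cells and 5052 in old ones.

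Class II UMIs were read in every named class of the old library, at levels that spanned nearly 2 orders of magnitude (the plot of levels by class). Levels below are UMIs per 1000000 UMIs of the class (CPM). Summed over the 7 genes, the level was 32871 CPM in old macrophage-like and 29029 in old B-like cells, the professional presenting cells of this preparation. Old EC-like cells held 2065 CPM, old erythroid-like cells 845, old fibroblast-like cells 428 and old T or NK-like cells 361. In the young library the sums were 26741 CPM in macrophage-like, 199 in EC-like and 34.7 in fibroblast-like cells.

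**Figure D1:**
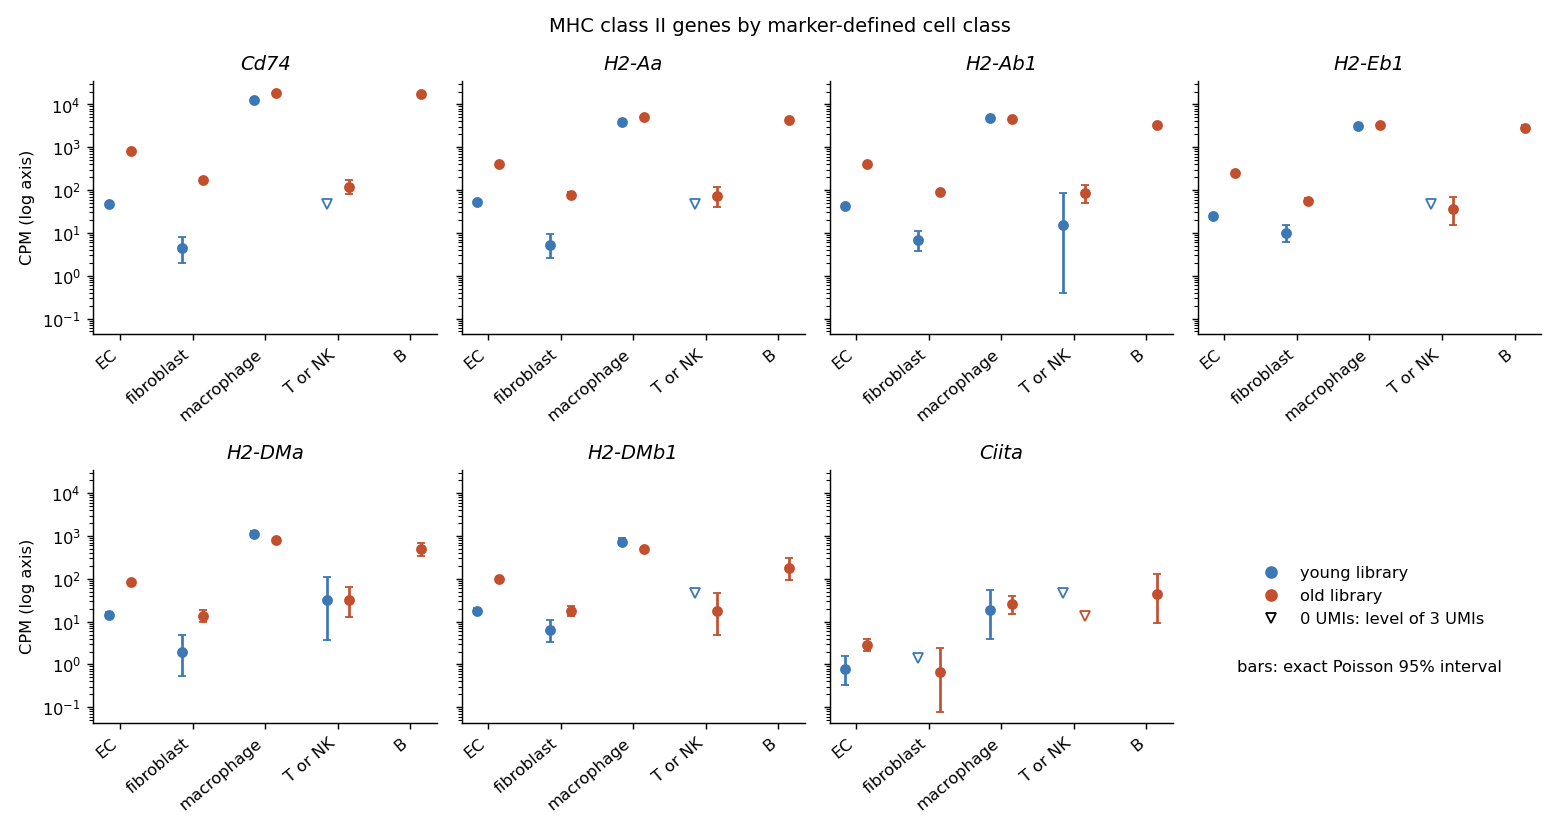
Level of each class II gene (CPM, log axis) in 5 cell classes of the young (blue) and old (red) library, with exact Poisson 95% intervals; classes under 5 cells are left out and open triangles mark 0 UMIs at the level of 3. Cd74 in EC-like cells lies at 46.3 CPM in young and 807 in old, between fibroblast-like and macrophage-like cells in both libraries.

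The invariant chain differed most between both EC-like groups. Cd74 stood at 46.3 CPM in young (95% interval 42.2 to 50.7, 472 UMIs) and 807 CPM in old EC-like cells (793 to 822, 11776 UMIs). The old level was thus 17.4-fold the young one (log2 ratio 4.12, 3.99 to 4.26). After thinning each cell to 3000 UMIs and leaving out shallower ones, Cd74 was seen in 81 of 1002 young cells (8.08%, 6.47 to 9.95%) and in 1221 of 1909 old cells (64.0%, 61.8 to 66.1%). Before thinning the shares were 16.0% and 71.7%. The thinning left out 95 young and 527 old EC-like cells. In old macrophage-like cells Cd74 reached 18576 CPM.

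RNA of the classical chain genes was also higher in the old EC-like cells, and whether the chains form pairs was not measured. H2-Aa, the alpha chain of I-A, was at 52.4 CPM (48.0 to 57.0) in young and 410 (400 to 421) in old, a log2 ratio of 2.97. Its partner H2-Ab1, the I-A beta chain, was at 43.2 (39.2 to 47.4) and 405 (395 to 415), a log2 ratio of 3.23. The I-E beta chain H2-Eb1 was at 24.4 (21.5 to 27.7) and 257 (249 to 266), a log2 ratio of 3.40. No gene for an I-E alpha chain is among the members, so H2-Eb1 RNA is not read as an I-E pair. At equal depth a UMI of H2-Aa was seen in 10.9% of young and 55.5% of old cells, of H2-Ab1 in 9.78% and 55.3%, and of H2-Eb1 in 5.39% and 41.6%.

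The editors and the transactivator had lower counts. H2-DMa, the DM alpha chain, stood at 14.4 CPM (12.2 to 16.9) in young and 83.7 (79.1 to 88.5) in old EC-like cells, with a difference of 2.54 on the log2 scale. For H2-DMb1, the DM beta chain, the levels were 17.9 (15.4 to 20.7) and 98.8 (93.8 to 104), a log2 ratio of 2.46. Ciita gave 8 UMIs in 7 young cells and 42 UMIs in 40 old cells. These counts are 0.785 CPM (0.339 to 1.55) and 2.88 CPM (2.08 to 3.89), with a log2 ratio of 1.88 (0.77 to 3.18). So few UMIs give the transactivator the widest interval of the 7.

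All 7 genes were 2-fold or more higher in old EC-like cells, where 1.38% of 10077 genes with at least 100 UMIs were (Ciita, with fewer, was not among these). The choice of members used this contrast, so nothing is read from that count. None of the 7 was lower, where 1.92% of genes were 2-fold or more lower. Among themselves the members ranged from log2 1.88 for Ciita, the member nearest to the 2-fold line, to 4.12 for Cd74, and the median over all genes was 0.06. The sum of members had a log2 ratio of 3.37 (3.31 to 3.44). When each cell was named by its own markers in place of clusters, this ratio was 2.61 and that of Cd74 2.84. In that setting 3 of the 13 young macrophage-like cells counted as endothelial and held 1635 of the 3673 class II UMIs of the young endothelial group.

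The makeup of the class II signal differed between libraries and classes. Cd74 gave 23.2% of class II UMIs in young EC-like cells (exact 95% interval 21.4 to 25.1%) and 39.1% in old ones (38.5 to 39.6%). In old macrophage-like cells it gave 56.5%, and in old B-like cells 61.7%. H2-DMb1 showed the opposite order, with 9.0% in young EC-like, 4.78% in old EC-like, 1.5% in old macrophage-like and 0.609% in old B-like cells. H2-Eb1 gave similar shares, 12.2% in young EC-like, 12.5% in old EC-like and 9.69% in old B-like cells. EC-like cells of both ages thus held a larger part of their class II UMIs as H2-DMb1 than the macrophage-like and B-like cells of the old library did. Old T or NK-like cells, on 81 class II UMIs, had a share (4.94%, 1.36 to 12.2%) whose interval held that of old EC-like cells.

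Other classes can receive UMIs from free RNA in the droplets, and old T or NK-like cells, a class in which mouse class II genes are normally silent, serve as a gauge. At equal depth 8 of 25 of these cells held a Cd74 UMI (32.0%, 14.9 to 53.5%), below the interval in old EC-like cells. H2-Aa was seen in 16.0% (4.54 to 36.1%), H2-Ab1 in 20% (6.83 to 40.7%) and H2-Eb1 in 16.0%, again below the EC-like intervals. Intervals of the shares overlapped for H2-DMa (12%, 2.55 to 31.2%, against 20.5% of EC-like cells) and H2-DMb1 (8.00%, 0.984 to 26.0%, against 23.8%). The summed levels of both did not overlap: H2-DMa was at 31.2 CPM (12.6 to 64.3) and H2-DMb1 at 17.8 CPM (4.86 to 45.7) in T or NK-like cells. Median depth before thinning was 2523 UMIs in T or NK-like and 5052 in EC-like cells. For Cd74 and the classical chains, old erythroid-like cells stood nearer to EC-like ones. Of 27 at equal depth 48.1% held a Cd74 UMI (28.7 to 68.1%), an interval that overlapped the EC-like one. That of H2-Eb1 (22.2%, 8.62 to 42.3%) overlapped as well. H2-Aa and H2-Ab1 were each seen in 29.6% (13.8 to 50.2%), below the EC-like intervals. In these cells Cd74 was at 344 CPM (262 to 443) and haemoglobin at 752035 CPM. Ciita had 0 UMIs in T or NK-like cells, which allows a level of up to 13.4 CPM (3 UMIs), above the 2.88 CPM of old EC-like cells, so a difference was not detectable at this depth.

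Markers of several other cell types moved with age in EC-like cells. Haemoglobin was at 25.1 CPM in young and 558 in old EC-like cells, where old T or NK-like cells had 598. Platelet markers were at 5.10 and 41.1 CPM, T or NK markers at 5.69 and 14.5, and B markers at 1.57 and 7.27. Of 10 macrophage markers, 7 were seen in young EC-like cells at a summed 14.6 CPM, with Csf1r, Adgre1 and Mrc1 at 0, and all 10 in old ones at 119 CPM. Per 100 Cd74 UMIs, Lyz2, the lysozyme of myeloid cells, gave 42.5 UMIs in old macrophage-like cells (41.5 to 43.6) and 5.67 in old EC-like cells (5.25 to 6.12). C1qa, a complement chain made by macrophages, gave 18.3 and 2.45 per 100. Lyz2 per 100 Cd74 UMIs stood at 38.3 (33.2 to 44.0) in old fibroblast-like cells, where 1 cell held 47 of 202 Lyz2 UMIs. Likewise 1 cell held 96 of their 527 Cd74 UMIs. Old T or NK-like cells had 29.6 (12.8 to 58.4) on 8 Lyz2 and 27 Cd74 UMIs. Both intervals held the macrophage value. Old erythroid-like cells, at 15.3 (6.98 to 29.0), and young EC-like cells, at 11.9 (8.96 to 15.4), lay below it. The B cell gene Cd79a gave 12.2 per 100 in old B-like and 0.255 in old EC-like cells. Where EC-like cells with a UMI of any macrophage, T or NK, B or dendritic marker were left out, Cd74 was seen in 60.8% (57.1 to 64.4%) of 715 old and 7.70% (5.86 to 9.91%) of 714 young cells. Beyond these values the part of other cells' RNA in the EC-like level was not tested.

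Fibroblast-like cells had a higher class II level in the old library on far fewer counts. Cd74 gave 9 UMIs in young and 527 in old, 4.34 CPM (1.99 to 8.25) and 172 CPM (158 to 187). H2-Aa gave 5.31 and 78 CPM, H2-Ab1 6.76 and 91.4, H2-Eb1 10.1 and 55.1, H2-DMa 1.93 and 13.7, and H2-DMb1 6.27 and 17.6. Ciita had 0 UMIs in young and 2 in old. Summed, the log2 ratio was 3.62 (3.28 to 3.99). All 6 members with counts in both libraries were 2-fold or more higher, where 1.62% of 5662 genes with at least 100 UMIs were (H2-DMa and H2-DMb1 fell short of that minimum). None was lower, where 2.70% of genes were 2-fold or more lower. The rule for members did not use this class, but the ratio shares its 2 libraries with the EC-like one. The share of old fibroblast-like cells with a Cd74 UMI (27.3%, 23.4 to 31.5%) was not above that of T or NK-like cells, so no expression is read from it. Haemoglobin, from red cells, also differed there, at 25.6 CPM in young and 1330 in old, or 585 without 1 old cell that held 2289 of the 4076 UMIs. Its part in the result was not tested.

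Macrophage-like cells had a high level in both libraries. Their class II sum was 26741 CPM in young and 32871 in old, a log2 ratio of 0.30 (0.25 to 0.34). Cd74 had a log2 ratio of 0.51 (0.44 to 0.58) and H2-Aa 0.39 (0.27 to 0.52). H2-DMa was lower in old, at 1123 CPM in young and 790 in old (log2 -0.51), as was H2-DMb1, at 738 and 495 (log2 -0.58). The young values rest on 13 cells, 12 of them in cluster 6, whereas the 153 old cells fell in clusters 6 and 9.

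Class II UMIs were spread over most old EC-like cells and unevenly so. At 3000 UMIs a cell, the 1909 old cells held from 0 to 52 class II UMIs with a median of 4. In detail, 10.3% held 0 UMIs (9.0 to 11.8%), 28.2% held 1 to 2, 23.5% held 3 to 5, 18.6% held 6 to 10 and 19.4% held over 10 (17.6 to 21.2%). Of 25 old T or NK-like cells at this depth, 40% held 0 (21.1 to 61.3%), 44% held 1 to 2 and 16% held 3 to 5. Of 27 old erythroid-like cells 29.6% held 0 (13.8 to 50.2%) and 14.8% held 6 to 10 (4.19 to 33.7%), with 9 the most. A few class II UMIs in an EC-like cell are therefore not read as expression by that cell. The 10% of old EC-like cells with the most UMIs held 36.0% of them. Thinned to 2000 UMIs, 17.7% of old cells held none. In young EC-like cells 74.0% of 1002 held 0 UMIs, 8 cells held over 10 and the highest held 18. The 10% of young cells with the most held 72.4% of UMIs. Such a share depends on the mean, which was 0.63 UMIs per cell in young and 6.04 in old, and was not compared between ages.

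**Figure D2:**
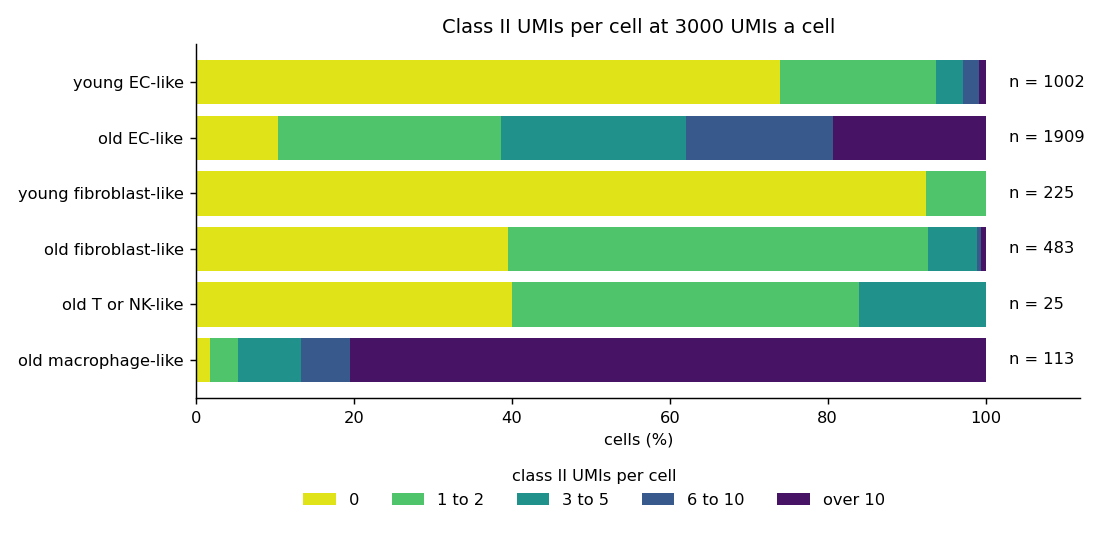
Share of cells (%) by number of class II UMIs per cell after thinning to 3000 UMIs, for 6 groups with the number of cells at the right. In old EC-like cells 10.3% hold 0 and 19.4% over 10, in young EC-like cells 74.0% hold 0, and no old T or NK-like cell holds over 3.

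Spread differed between classes. The variance of the class II count over its mean is 1 for counts scattered at one rate. This ratio was 7.47 in old and 4.87 in young EC-like cells. It was 1.11 in old T or NK-like cells, whose highest cell held 3 UMIs. Old erythroid-like cells had 3.02, with 9 UMIs in the highest of 27 cells. In old fibroblast-like cells it was 8.98, and 2.57 without 1 cell that held 62 UMIs. Without its highest cell the old EC-like group had 7.32. Of the old fibroblast-like cells 39.5% held 0 and 3 of 483 held over 10. By gene in old EC-like cells the ratio was 5.0 for Cd74, the highest of 130 genes of like mean, whose median was 1.11. It was 2.19 for H2-Aa, 2.07 for H2-Ab1 and 1.79 for H2-Eb1, against medians of 1.03 to 1.06 for genes of like mean. DM genes were nearer to 1, with 1.24 for H2-DMa and 1.13 for H2-DMb1. Ciita, at 0.00681 UMIs per cell, had a ratio of 0.993, and at such a mean no spread could be read.

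Class II genes were found together in the same old endothelial cells more often than the product of their shares. Cd74 and H2-Aa UMIs lay together in 807 of 1909 cells, where the product gave 678. H2-Aa was seen in 66.1% of cells with Cd74 (63.4 to 68.7%) and 36.8% of cells without (33.2 to 40.5%). H2-Eb1 and H2-DMa had one of the higher excesses, with 244 cells against 163, a ratio of 1.5. H2-DMa and H2-DMb1, the chains of one heterodimer, lay together in 136 cells against 93.4, a ratio of 1.46. Over the 15 pairs of the 6 members other than Ciita the ratio ran from 1.17 to 1.5. Ciita was seen in 13 of these cells, and 11 of the 13 also held a Cd74 UMI, where the product gave 8.31.

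**Figure D3:**
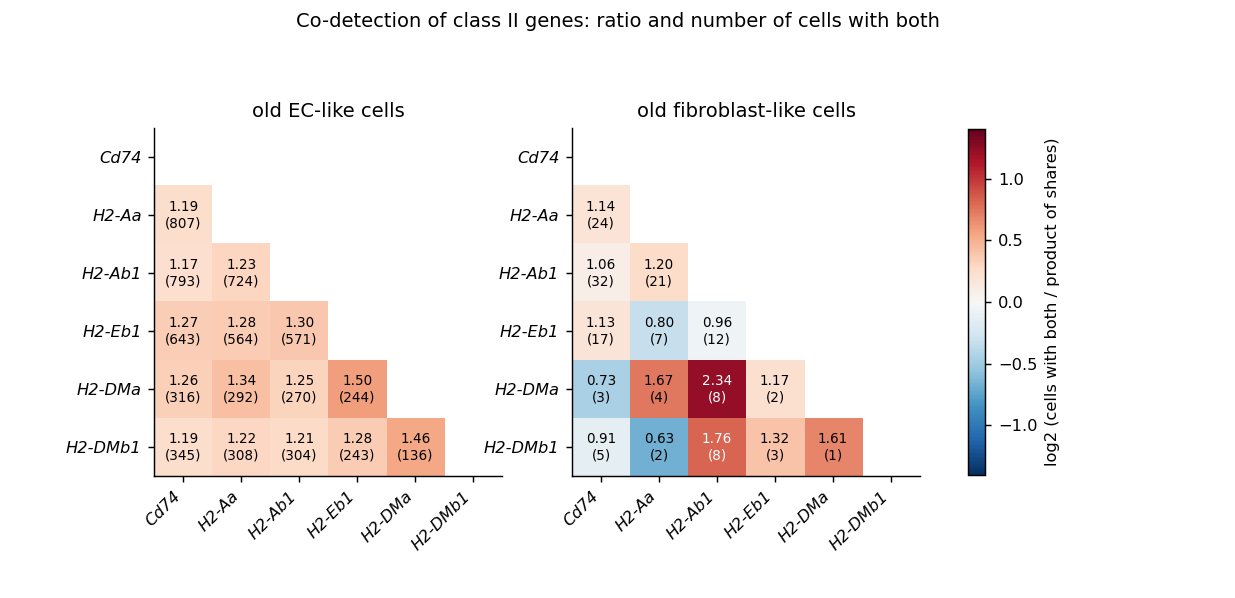
Ratio of cells with UMIs of both genes to the product of both shares (colour, log2; number, ratio, with the count of cells in parentheses) for 6 class II genes in old EC-like and old fibroblast-like cells at equal depth. All 15 pairs lie above 1 in EC-like cells (Cd74 with H2-Aa 1.19, 807 cells), whereas the fibroblast-like pairs lie on both sides of 1 on 1 to 32 cells.

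Genes of other cells gave a comparison in the same droplets. Cd74 lay together with the red cell gene Hbb-bs in 733 cells where the product gave 735, with Lyz2 in 158 where it gave 144 and with C1qa in 58 where it gave 67.2. In old fibroblast-like cells H2-Aa was seen in 18.2% of cells with Cd74 and 15.1% without, and their intervals overlapped. In young EC-like cells Cd74 and H2-Aa lay together in 31 cells where the product gave 8.81, and H2-Ab1 and H2-Eb1 in 29 where it gave 5.28. The ratio is bounded by the larger share of a pair and was not compared between ages. H2-Aa was seen in 38.3% of young cells with Cd74 (27.7 to 49.7%) and 8.47% of those without (6.75 to 10.5%). Of old EC-like cells 333 held 4 of the 7 genes, 218 held 5 and 64 held 6, whereas in young ones 17 held 4, 5 held 5 and 2 held 6.

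Within the endothelium, 2 gene programs were set apart by the genes in the rule: Coch, Sost and Adra2a (first) and Bcan, Isl1 and Nkx2-3 (second). A cell went to the one with more UMIs at equal depth, or to neither. These are ranges of a score: 209 of 491 old first-program cells and 443 of 988 second-program cells differed by 1 UMI. In young EC-like cells the class II sum was 120 CPM (102 to 140) in 461 first-program, 291 (255 to 330) in 276 neither and 282 (246 to 321) in 265 second-program cells. In old ones it was 1258 CPM (1201 to 1317) in 491, 1998 (1922 to 2077) in 430 and 2396 (2341 to 2453) in 988 cells, in the same order. Second over first program, the log2 ratio was 1.23 (0.94 to 1.53) in young and 0.93 (0.86 to 1.00) in old.

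**Figure D4:**
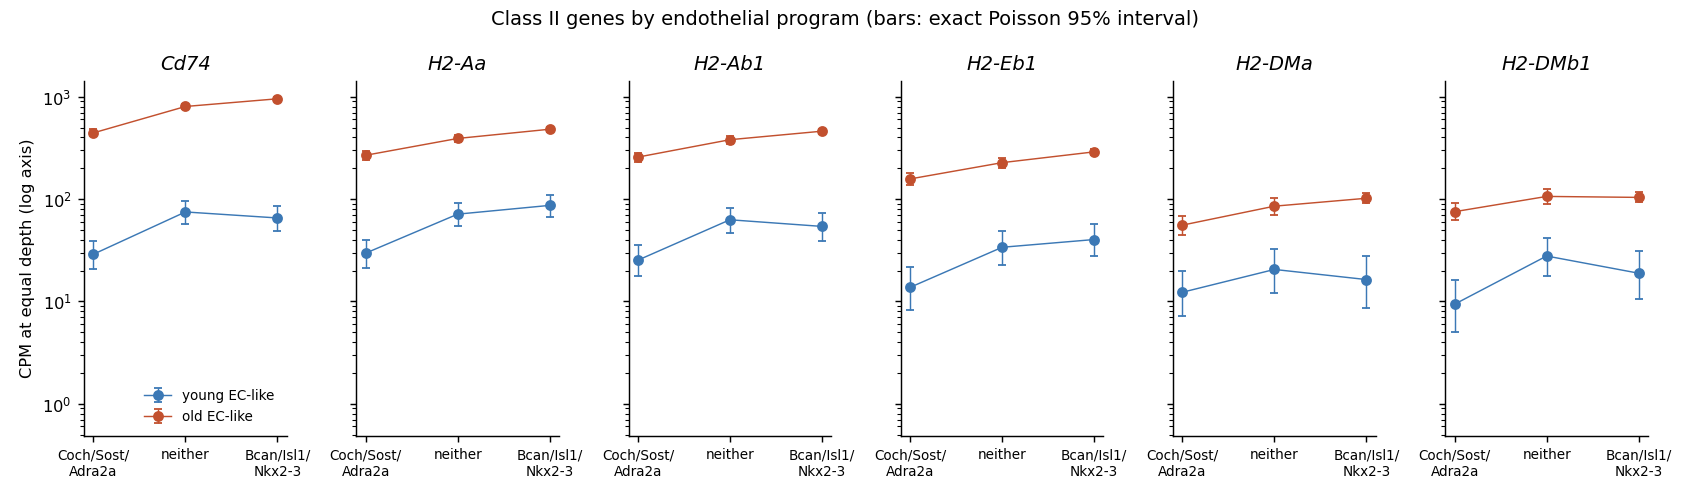
Levels of 6 class II genes (CPM at equal depth, log axis) in EC-like cells of the first program, neither and the second program, in young (blue) and old (red), with exact Poisson 95% intervals. In the old library every gene is lowest in the first program, Cd74 with a log2 difference of 1.11 to the second, and old values lie above young ones in each group of cells.

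By gene, second-program cells of the old library had more Cd74 by log2 1.11 (0.98 to 1.23), H2-Aa by 0.85, H2-Ab1 by 0.84, H2-Eb1 by 0.88, H2-DMa by 0.87 and H2-DMb1 by 0.46 (0.15 to 0.79). Cd74 was the only one of the 6 past 2-fold in old, where 0.893% of 7952 genes were. In young EC-like cells 4 members with at least 50 UMIs, namely Cd74 (1.18), H2-Aa (1.55), H2-Ab1 (1.10) and H2-Eb1 (1.55), were past 2-fold, where 0.866% of 5540 genes were. H2-DMb1 (1.01, interval -0.17 to 2.20) and H2-DMa (0.41, -0.75 to 1.54) had fewer UMIs, and both intervals held 0. Old over young, the sum had a log2 ratio of 3.39 in the first program, 3.09 in the second and 2.78 in neither, so the age difference was present in each. Macrophage markers were close across the old groups, at 114 CPM in first-program and 122 CPM in second-program cells.

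Which other genes went with class II was asked by comparing old EC-like cells rich in class II UMIs at equal depth (8 or more, 534 cells) with those poor in them (0 or 1, 486 cells), members left out. At the edges, 85 cells held 7 and 69 held 8 UMIs, and 250 held 2. Of 6791 genes with at least 50 UMIs, 19 were 2-fold or more higher (0.280%) and 36 lower (0.530%). Depth before thinning was 6520 UMIs in upper and 6113 in lower cells at the median. Macrophage markers were at 126 and 107 CPM (log2 0.24, -0.07 to 0.55) and were seen in 160 and 125 of the cells, with 3 of the 10 markers having enough UMIs. Red cell markers were at 565 and 549 CPM. Fibroblast markers stood at 469 CPM in upper and 377 in lower cells (log2 0.32, 0.15 to 0.48), with 2 of 5 measured markers higher, and smooth muscle markers at 383 and 292 (log2 0.39, 0.21 to 0.57). Their part in the differences below was not tested.

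Of the 12 genes named as highest with class II, 5 were interferon-inducible GTPases. Slc26a4, an anion exchanger, came first at log2 2.35 (1.45 to 3.37), with 67 UMIs in upper and 12 in lower cells. Iigp1, an immunity-related GTPase, was at 196 CPM in upper and 87.1 in lower cells (log2 1.17, 0.87 to 1.48). Irgm2 and Ifi47, of the same family, had log2 ratios of 1.34 and 1.04. Guanylate-binding proteins Gbp4 (1.05) and Gbp2 (0.87) were also among the 12 highest, as were H2-Q6 (1.03) and H2-Q7 (0.87), class I genes of the Qa region whose 3′ ends are partly shared. Ctla2a, Fbxw17, Llgl1 and Dcn completed the list. Dcn, encoding decorin, was over 3 times higher in fibroblast-like cells.

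The same 12 genes were read in cells that had not ranked them. In young EC-like cells (1 or more against 0 class II UMIs) 10 of 12 were higher, Iigp1 by 0.69 (0.35 to 1.03). The median over all genes was -0.003 there. Fbxw17 (-0.32) and Ifi47 (-0.11) were lower, and their intervals and those of Slc26a4, Irgm2 and Llgl1 held 0. In old fibroblast-like cells 4 of 12 were higher, beside a median of 0.017 over all genes. Only Dcn, which was lower, had an interval clear of 0. Slc26a4 had 1 UMI and Ctla2a 7, so the 2 classes were not compared. Both comparisons were added after the old EC-like values were seen.

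Of the interferon gamma list 24 genes were set, 15 had enough UMIs, and 15 of 15 were higher in class II-rich cells, 11 with an interval above 0, at a median log2 ratio of 0.63. Over all 6791 genes 47.5% were higher, 4.96% had an interval above 0, and the median was -0.02. By number of class II UMIs, the 13 interferon-inducible GTPases of the list summed to 535 CPM in cells with 0, 628 with 1 to 2, 848 with 3 to 5, 902 with 6 to 10 and 1143 with over 10. In young EC-like cells they summed to 653, 776 and 1039 CPM at 0, 1 to 2 and 3 or more UMIs. In old fibroblast-like cells these sums were 194, 163 and 210 CPM, while macrophage markers stood at 94.2, 110 and 783 CPM. The last group was 35 cells with 22 GTPase and 82 macrophage marker UMIs, and 1 of these cells held 62 class II UMIs.

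**Figure D5:**
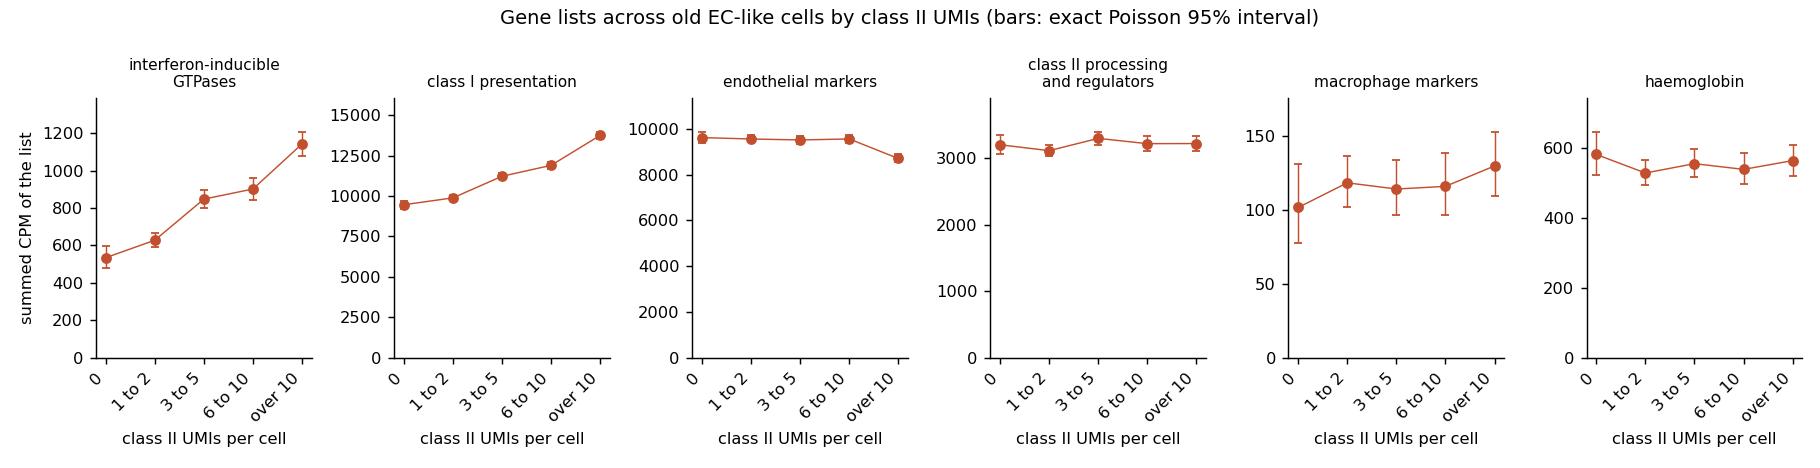
Summed level (CPM) of 6 gene lists in old EC-like cells by class II UMIs per cell (0, 1 to 2, 3 to 5, 6 to 10, over 10), with exact Poisson 95% intervals and each axis from 0. Interferon-inducible GTPases go from 535 to 1143 CPM and class I genes from 9460 to 13751, while haemoglobin stays between 529 and 582.

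Class I presentation genes went with class II too. Of 17 listed, 16 had enough UMIs, 14 were higher and 12 had an interval above 0, with a median log2 ratio of 0.40. The class I light chain B2m was at 3969 CPM in upper and 2559 in lower cells, and the heavy chain H2-K1 at 2478 and 1671. Tap1, a subunit of the peptide transporter, was at 68.4 and 37.0 CPM. Genes of class II processing did not move as a group: 7 of 13 were higher with a median of 0.10. Of the costimulation list 2 of 10 had enough UMIs and both were higher, the integrin ligand Icam1 at 200 against 148 CPM and the ICOS ligand Icosl at 43.9 against 31.6.

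The 12 genes lowest with class II held the 3 that set the first program apart. Coch, encoding cochlin, was at 27.0 CPM in upper and 95.4 in lower cells (log2 -1.82), Adra2a, an adrenergic receptor, at 94.7 and 257, and Sost, encoding the Wnt inhibitor sclerostin, at 27.6 and 74.1. The lowest 12 also held Stmn2, Klk10, Tcf4, Wfdc1, Serpina1b, Igf2 and Tbx1, as well as Igfbp5, over 3 times higher in fibroblast-like cells. Ccl21a, a chemokine of lymphatic endothelium that led a cluster of 1 young and 7 old EC-like cells, had 216 UMIs in lower cells, up to 81 of them in 1 cell, and 11 UMIs there without the 3 highest cells. First-program cells were 12% of upper and 38.9% of lower cells, and second-program cells 65.4% and 39.7%. The genes were also read within each program, in cells that are part of those that ranked them. Coch, Adra2a and Sost, 3 of the 12, also sorted the cells into programs. Their ratios within a program depend on that sorting and are not read as results. Within the first program 12 of 12 were lower and within neither 11 of 12. The medians over all genes were 0.004 and -0.029. Within the second program, at a median of -0.020, 8 of the 12 were lower. There Ccl21a (1.86), Coch (1.42), Tcf4 (0.28) and Sost (0.06) were higher on few UMIs.

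The same pathway lists were read old over young in EC-like cells, where 58.9% of 12115 genes with at least 20 UMIs had a ratio above 0. Of 21 genes of class II processing and regulation, 17 had at least 20 UMIs, 9 were higher and 8 lower in old, with a median log2 ratio of 0.10 beside 0.06 over all genes. Ctss, the protease that trims the invariant chain, gave 1 UMI in young and 79 in old (log2 5.79, 3.27 to 11.1). H2-DMb2, the second DM beta gene, gave 0 and 38, which is at least 8.85-fold higher against 3 UMIs. Both were over 3 times higher in another old class, Ctss in macrophage-like and H2-DMb2 in B-like cells. Ctsh, a cathepsin, was at 1982 CPM in young and 1545 in old, and the thiol reductase Ifi30 at 17.8 and 13.5.

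Of 10 ligands that assist or restrain T cell activation, 5 had at least 20 UMIs and 2 of them were higher in old. Icam1 had the highest level of the 10, 203 CPM in young and 164 in old (log2 -0.31, -0.40 to -0.22). Icosl was at 21.6 CPM in young and 34.8 in old, and the checkpoint ligand Cd274 at 6.28 and 7.20 (log2 0.20, -0.26 to 0.67). Cd40 was at 21.7 and 13.4 and Tnfsf9 at 1.57 and 0.686. Cd80 gave 2 UMIs in young and 3 in old EC-like cells, and Cd86 gave 0 and 9.

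Of the interferon gamma list, 13 of 21 genes with enough UMIs were above 0 in the old over young ratio of EC-like cells and 8 below, with a median log2 ratio of 0.06, equal to that of all genes, and 10 of 21 were above 0 with median-of-ratios scaling. The chemokine gene Cxcl9 gave 0 UMIs in young and 87 in old, at least 20.3-fold higher against 3 UMIs. Socs1, a feedback inhibitor of the pathway, was at 1.86 and 3.43 CPM and was higher in another old class. Irgm1 (44.0 and 22.6 CPM) and Tgtp2 (9.71 and 3.7) were lower in old. Of the 3′ words of Tgtp2, 73.7% are shared with other genes, most with Tgtp1, so its counts cannot be assigned to it alone. Ifng itself gave 9 UMIs in 6 of the 82 old T or NK-like cells (40.1 CPM), 1 UMI in old EC-like cells and 0 in the young library. In the 7 young T or NK-like cells 3 UMIs would be 46.7 CPM, so a difference was not detectable at this depth. The receptor genes were lower in old, Ifngr1 at 377 and 315 CPM and Ifngr2 at 15.8 and 12.2. Of 17 class I genes, 13 were higher and 4 lower with a median of 0.23, among them Psmb8, an immunoproteasome subunit (260 and 376 CPM), H2-Q7 (296 and 425), H2-Q4 (331 and 216) and Tap2 (101 and 82.3).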

How the data were processed

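Per the labels' protocols, 8700 cells of each animal entered a droplet 3′ kit (version 2). The authors deposited raw UMI counts for each barcode and gene. Per the submitters' processing notes they ran Cell Ranger with GRCm38. Its version is not given in the sources used here, nor is the annotation. All values were whole numbers when checked.

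A barcode had to hold 200 genes or more and no more than 10% mitochondrial UMIs, which 1 young and 72 old did not. Scrublet called 5 and 4 doublets (0.366% and 0.120%), all taken out. At such shares the caller had not worked, and doublets may remain. The 1360 young and 3332 old cells were clustered together in scanpy 1.11.5 with igraph 0.11.9 (genes seen in at least 3 cells, 10000 UMIs a cell, 2000 variable genes without class II genes, 30 components, 15 neighbours, Leiden resolution 0.5, no batch correction). A cluster took the class with the highest mean share of cells per marker, if at least 3 were each seen in 25% of them, and stayed unnamed where another class led its top 10 genes. T or NK and B cells were parted cell by cell.

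UMIs were summed per class and library. Levels carry exact Poisson, shares exact Clopper-Pearson and ratios exact conditional 95% intervals (scipy 1.17.1, numpy 2.4.6, pandas 2.3.3, Python 3.11.15). Genes needed 100 UMIs for the background of an old over young ratio and 20 in a list. Between programs, and between cells rich and poor in class II, they needed 50. Molecular counts of one droplet are not independent animals. Named genes are the 7 members, the 12 highest and 12 lowest ratios with class II by the interval bound nearest to 0, and the 2 highest and 2 lowest old over young ratios of each list. Left out of the ranking were Xist, Tsix, Y-linked, unnamed-model, mitochondrial, haemoglobin and ribosomal protein genes. B2m, H2-K1, Tap1, Icam1, Ifngr1, Ifngr2, Cd80 and Cd86 fall outside that rule and were picked with their values known. Members, lists and markers were chosen with earlier results of these data known. The ratio code was tested on simulated counts with 200 altered genes. Values without the single highest cell were added after seeing the data. Alternatives covered the cell filter, doublet calls, class assignment, clustering, immune UMIs, depth, scaling and low counts.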

Additional observations from a re-analysis of the deposited data

Results flagged for a closer look

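Members whose old over young ratio had opposite signs in EC-like and macrophage-like cells were H2-Ab1, H2-DMa and H2-DMb1. H2-Ab1 had a log2 ratio of 3.23 in EC-like and -0.0811 in macrophage-like cells, and the latter interval (-0.19 to 0.03) held 0. H2-DMa had 2.54 and -0.51, and H2-DMb1 had 2.46 and -0.58. The difference between both classes was not tested, since each age is 1 library, and the young macrophage-like value rests on 13 cells.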

How the results depend on the processing

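No paired analysis was possible because each age has 1 sample. No ratio of a member or of the class II sum changed sign under the alternatives run for it. With median-of-ratios scaling, interferon gamma genes above 0 went from 13 to 10 of 21, so that most were then below 0, and class I genes from 13 to 11 of 17. The old EC-like over old fibroblast-like log2 ratio of the class II sum (2.27) was 2.13 with Scrublet calls kept, 2.36 with a marker rule for each cell, 2.56 without cells holding an immune marker UMI and 1.93 with median-of-ratios scaling. Old over young in EC-like cells (3.37) was 3.26, 2.61 and 3.12 under the first 3 of these. With Scrublet calls kept, 1062 young and 1319 old cells were EC-like, since one endothelial cluster then stayed unnamed. The fibroblast-like ratio (3.62) was 3.15 without immune UMIs. First over second program in old cells (-0.93) was -1.09 with Scrublet calls kept, -1.17 without immune UMIs, -0.85 at 2000 UMIs and -1.3 by whole cluster. Old EC-like cells with 0 class II UMIs (10.3%) were 12.2% without immune UMIs and 17.7% at 2000 UMIs. The ratio for Cd74 with H2-Aa (1.19) was 1.33 at 2000 UMIs. Genes 2-fold higher with class II (19) numbered 30 with Scrublet calls kept, 12 at 2000 UMIs, 118 with a minimum of 20 UMIs and 29 for the 10% of cells with the most against cells with 0. Costimulation genes above 0 (2 of 5) were 6 of 9 with no minimum. Where no value or construction shows it, the cause was not tested. Depth limits Ciita most, with 8 and 42 UMIs in EC-like cells.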

Other observations

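The old macrophage-like cells formed 2 clusters that differed in class II. Cluster 6 (84 old cells), led by Lyz1, Retnla and Lyz2, held a class II sum of 43734 CPM (95% interval 43159 to 44314). Cluster 9 (69 old cells), led by Cd209f, C1qc and Fcna with the mannose receptor Mrc1, held 10150 CPM (9753 to 10560). Cd74 was at 24756 CPM in the first and 5652 in the second, and at equal depth it was seen in 98.7% and 92.3% of cells. Both clusters carried Lyz2, at 7239 and 9294 CPM, whereas Mrc1 was at 96.9 and 802 CPM. Old EC-like clusters differed as well: cluster 3 held 2531 CPM, cluster 4 held 2335 and cluster 5, led by Cyp4b1, Stmn2 and Adra2a, held 1029.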
